A study of Mus musculus with 4 samples.

Results

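A group of 8 copies of the Zscan4 and Usp17l gene families were followed in RNA-seq of mouse embryonic stem cells (ESCs) with and without Snf2l. They are Zscan4a, Zscan4c, Zscan4d and Zscan4f, and Usp17la, Usp17lb, Usp17lc and Usp17le, taken by name as 8 of the 24594 genes of the count table. The choice was made with earlier results of these data known, so their p-values and counts are descriptive. The RefSeq annotation of mouse genome build GRCm38 lists 15 Zscan4 and Usp17l copies, 10 of which are genes of this table. The remaining 2 of those 10, Zscan4b and Usp17ld, had too few counts to be tested and are given as counts only. The 8 copies are therefore those that passed the filter on low counts.

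Poly(A) RNA was measured in 4 libraries of one 129S6/SvEvTac line of ESCs, 2 of wild type (WT) and 2 of a Snf2l knockout, with no treatment. The gene, also named Smarca1, codes for SNF2L, an ATPase of ISWI chromatin remodelers. Both genotypes were kept on gelatin in serum with leukemia inhibitory factor, and the knockout was made by CRISPR–Cas9 as a clonal line, so that genotype and clone cannot be told apart. The libraries are labelled duplicates of 1 batch. The methods call RNA-seq replicates independent without saying whether they were separate cultures of a line, and the p-values measure the spread between these libraries.

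Zscan4 genes code for proteins with a SCAN domain and zinc fingers that are switched on in the 2-cell embryo. In ESC cultures they are on in a small and changing fraction of cells, the 2-cell-like cells, and they have been linked to telomere maintenance. Usp17l genes code for deubiquitinating enzymes, first described as cytokine-induced genes of blood cells, and they are transcribed in the same early embryonic state, where the transcription factor DUX activates many genes of both kinds. In bulk RNA, fewer cells in that state and less RNA per cell cannot be told apart.

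All 8 copies lie on chromosome 7, the Zscan4 copies within 0.608 Mb and the Usp17l copies within 1.446 Mb. Their upstream sequences are shown because they tell how alike the copies are where transcription starts. RefSeq (GRCm38.p6) gave the sequence from 250 bases before to 50 bases after the annotated start for 6 of the 8 copies, all but Zscan4a and Usp17le. These windows were 97.23% to 99.28% identical over 3 Zscan4 pairs and 91.67% to 95.33% identical over 3 Usp17l pairs. The 250 bases upstream of Zscan4d, the Zscan4 copy with the most counts, and of Usp17lb, the copy with the largest fold change, read as follows, 5′ to 3′ on the gene's strand, with the motif TATAAA in capitals.
Zscan4d, chr7:11166149-11166398, minus strand: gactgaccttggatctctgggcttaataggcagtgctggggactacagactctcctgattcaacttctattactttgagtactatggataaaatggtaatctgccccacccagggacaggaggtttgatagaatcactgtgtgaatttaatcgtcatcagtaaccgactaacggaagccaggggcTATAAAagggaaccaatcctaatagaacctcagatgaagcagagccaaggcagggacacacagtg
Usp17lb, chr7:104842584-104842833, minus strand: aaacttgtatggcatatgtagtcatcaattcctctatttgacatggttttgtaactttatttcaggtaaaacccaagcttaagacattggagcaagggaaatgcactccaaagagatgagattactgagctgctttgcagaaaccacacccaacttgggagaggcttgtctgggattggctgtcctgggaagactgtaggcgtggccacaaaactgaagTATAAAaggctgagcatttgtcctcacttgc

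The 60 bases around that motif allow the copies of a family to be read against each other. The capitals mark TATAAA or, in Usp17la, the 6 bases aligned to it.
Zscan4c, chr7:11005666-11005725, plus strand: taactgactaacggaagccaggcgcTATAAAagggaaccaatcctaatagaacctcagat
Zscan4d, chr7:11166179-11166238, minus strand: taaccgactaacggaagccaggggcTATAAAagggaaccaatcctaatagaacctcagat
Zscan4f, chr7:11397859-11397918, plus strand: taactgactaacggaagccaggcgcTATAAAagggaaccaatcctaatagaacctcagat
Usp17la, chr7:104856945-104857004, plus strand: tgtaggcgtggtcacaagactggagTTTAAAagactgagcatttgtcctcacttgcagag
Usp17lb, chr7:104842580-104842639, minus strand: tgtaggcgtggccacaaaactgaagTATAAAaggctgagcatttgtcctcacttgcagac
Usp17lc, chr7:103416583-103416642, plus strand: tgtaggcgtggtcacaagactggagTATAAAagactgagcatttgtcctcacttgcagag

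TATAAA stood on the gene's strand in 5 of the 6 member windows, and in Usp17la the aligned bases were TTTAAA. Its first base lay 31 bases before the annotated start in Zscan4f and Usp17lb, 54 in Zscan4c, 65 in Zscan4d and 88 in Usp17lc. Of 32851 windows of the same length from all genes, 8.32% held TATAAA on the gene's strand and 13.62% on either strand. The motif TGCACAC, reported for ZSCAN4, was searched on both strands and matched in 0 of the 6 windows, against 4.40% of all windows. TGATT followed by any base and AATCA, a form of site of double homeobox factors such as DUX, also matched in 0 of the 6, against 0.03% of all windows. None of these motifs contains another, and a missing match says only that these letters are not in these windows.

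The knockout label was checked on Smarca1, whose counts were 620 and 626 in WT but 37 and 31 in the knockout, or 5.06% of the WT level. Library totals lay between 13771642 and 15608803 counts. ESC identity was checked on 8 markers, whose summed level was 4526 ± 208 CPM (counts scaled to a common library size) in WT, against 4717 ± 110 after knockout (SD, n = 2 each). CPM values were scaled by TMM. A gene was called a differentially expressed gene (DEG) at an adjusted p under 0.01 with a log2 fold change beyond 1 in either direction, by edgeR's quasi-likelihood test with Benjamini-Hochberg adjustment over 13840 genes. Unless DESeq2 is named, adjusted p-values are from that test.

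Summed over its copies, each family was lower in the knockout. The knockout kept 50.4% of the summed WT level of Zscan4 and 31.0% of that of Usp17l. The 4 DEGs were Zscan4a, Zscan4d, Usp17lb and Usp17le, and Zscan4f and Usp17la passed an adjusted p under 0.05 without being DEGs. Zscan4c and Usp17lc did not pass. With DESeq2, 0 of the 8 were DEGs, and the adjusted p of Zscan4a, Zscan4d, Usp17lb and Usp17le was 0.0525, 0.0159, 0.0202 and 0.0162 in that order. DESeq2 gave no adjusted p for Zscan4f, Usp17la and Usp17lc, so these could not be called by it. Among all genes tested, 0.419% were DEGs that fell, 5.21% fell at an adjusted p under 0.05, and 9.21% changed in either direction at that threshold. Of the 2639 genes within the members' range of mean CPM, 0.899 to 4.94, 3.26% fell at an adjusted p under 0.05. These shares include chromosome 8, whose 754 tested genes had a median log2 fold change of -0.51. Over all genes, 1274 passed an adjusted p under 0.05 and 553 of these rose. With chromosomes 8 and Y left out, 574 of 13072 passed and 370 of these rose.

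For the 8 copies the median log2 fold change was -1.38, against 0.00 for all genes tested and 0.056 for the 1128 tested on chromosome 7. These counts come with a limit, because the WT libraries alone carried Zscan4f, Usp17la, Usp17lb and Usp17lc past the filter, which asks for about 10 counts in 2 libraries. The other 4, Zscan4a, Zscan4c, Zscan4d and Usp17le, had at least 10 counts in every library, and 3 of them were DEGs.

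**Figure D1:**
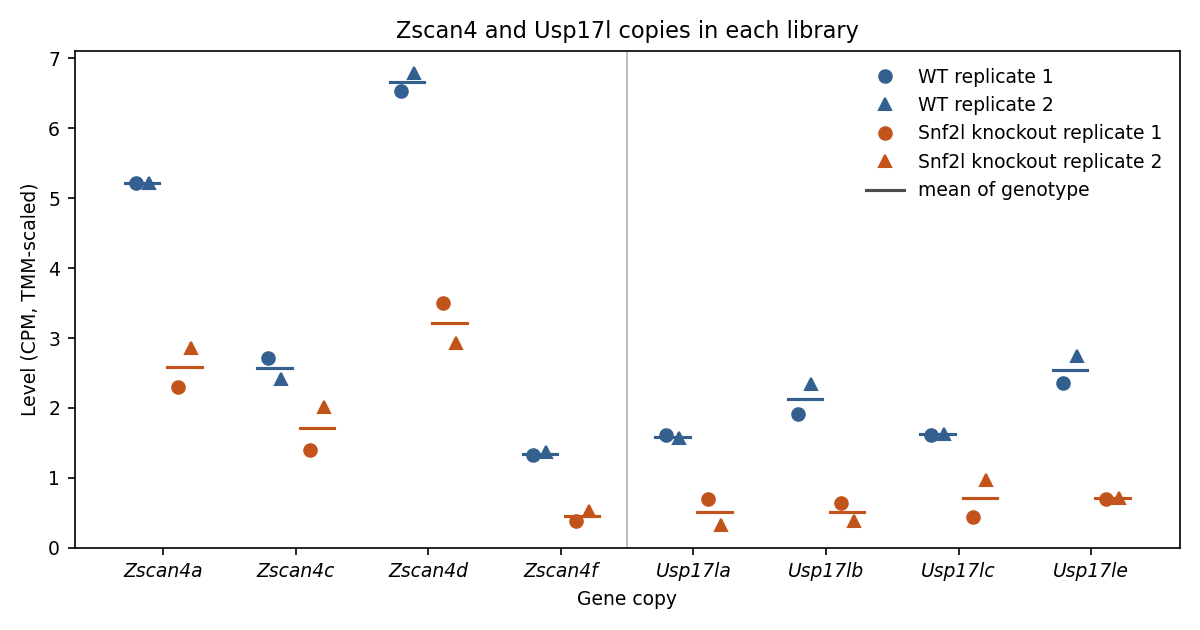
Level in TMM-scaled CPM (vertical axis, from 0) of each Zscan4 and Usp17l copy (horizontal axis) in each library, with WT in blue, the Snf2l knockout in orange, circles for replicate 1, triangles for replicate 2 and a bar at the mean of 2. For each of the 8 copies both knockout libraries sit below both WT libraries, with the narrowest gap at Zscan4c.

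Zscan4d (Entrez gene 545913, chr7:11161643-11166148), the copy with the most transcripts in the early embryo, was the most counted copy here. It had 89 and 104 counts in WT, against 55 and 45 in the knockout, which was 6.66 ± 0.175 CPM against 3.22 ± 0.408 CPM (SD, n = 2 each). The groups did not overlap. Its log2 fold change was -1.05 (SE 0.189, adjusted p = 0.00241, edgeR). Without knockout replicate 2 it was -0.93, short of the limit of 1, so that Zscan4d was then no DEG.

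Zscan4a (Entrez gene 434555, chr7:10794241-10799065) is annotated as a transcribed pseudogene. It had 71 and 80 counts in WT, against 36 and 44 in the knockout, or 5.22 ± 0.00263 CPM against 2.58 ± 0.402 CPM (SD, n = 2 each). The groups did not overlap, and the log2 fold change was -1.02 (SE 0.209, adjusted p = 0.00586, edgeR), just past the limit of 1. Without knockout replicate 1 it was -0.86 (adjusted p = 0.013, edgeR), and without WT replicate 2 the adjusted p was 0.0111, so that Zscan4a was no DEG in either case. It also fell short of the limit of 1 with upper-quartile scaling (-0.98) and with library sizes alone, and with chromosomes 8 and Y left out its adjusted p was 0.0126 (edgeR).

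Zscan4c (Entrez gene 245109, chr7:11005745-11010547), a copy with a full-length protein whose promoter is used in reporters of the state in ESCs, was the member with the smallest change. It had 37 counts in each WT library and 22 and 31 in the knockout libraries, with 2.57 ± 0.215 CPM against 1.71 ± 0.435 CPM (SD, n = 2 each). The groups did not overlap, but the log2 fold change of -0.58 (SE 0.275) did not pass, with an adjusted p of 0.230 (edgeR). It was -0.34 without knockout replicate 1 and -0.86 without knockout replicate 2, which had the higher level.

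Zscan4f (Entrez gene 665902, chr7:11397915-11402318) had the fewest counts among the Zscan4 members, 18 and 21 in WT, against 6 and 8 in the knockout. The levels were 1.35 ± 0.0338 CPM and 0.452 ± 0.0977 CPM (SD, n = 2 each), with no overlap. Its log2 fold change of -1.56 (SE 0.404, adjusted p = 0.0237, edgeR) was the largest fall among the Zscan4 members. The adjusted p was 0.107 without knockout replicate 1, 0.0771 without WT replicate 1 and 0.112 without WT replicate 2, so this call rests on each of those 3 libraries.

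Among the deubiquitinase genes, Usp17lb (Entrez gene 381944, chr7:104840257-104842583) had the largest fold change of all 8 copies. It had 26 and 36 counts in WT, against 10 and 6 in the knockout, or 2.13 ± 0.310 CPM against 0.514 ± 0.175 CPM (SD, n = 2 each). The knockout kept 24.1% of the WT level and did not overlap with it, with a log2 fold change of -2.04 (SE 0.369, adjusted p = 0.00244, edgeR). Usp17le (Entrez gene 625530, chr7:104767961-104777470) followed, with 32 and 42 counts in WT, against 11 in each knockout library, and it kept 27.8% of its WT level. Its log2 fold change was -1.84 (SE 0.318, adjusted p = 0.00179, edgeR), and leaving out each library in turn moved it only between -1.94 and -1.72, a narrower range than for the other Usp17l copies.

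Usp17la (Entrez gene 13531, chr7:104857016-104862667), one of the first deubiquitinases described in this family, had 22 and 24 counts in WT, against 11 and 5 in the knockout. The knockout libraries differed from each other, at 0.701 and 0.325 CPM, but both lay below the WT libraries, at 1.62 and 1.57 CPM. Its log2 fold change of -1.61 (SE 0.403, adjusted p = 0.0199, edgeR) depended on that difference. It was -2.26 without knockout replicate 1 (adjusted p = 0.00519, edgeR), which made it a DEG, and -1.17 without knockout replicate 2 (adjusted p = 0.159, edgeR). Without WT replicate 1 the adjusted p was 0.0503.

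Usp17lc (Entrez gene 13532, chr7:103416696-103419174) had 22 and 25 counts in WT, against 7 and 15 in the knockout, with 1.62 ± 0.0106 CPM against 0.711 ± 0.375 CPM (SD, n = 2 each). The groups did not overlap, but the spread between the knockout libraries was the widest among the Usp17l copies. The log2 fold change of -1.19 (SE 0.385) did not pass, at an adjusted p of 0.0710 (edgeR), and without knockout replicate 2 it was -1.84, with an adjusted p of 0.0182 (edgeR). In GENCODE, Usp17lc overlaps the miRNA gene Gm25774, while the other 7 copies overlap no annotated gene.

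For each of the 8 copies the knockout levels were both below the WT levels, a pattern seen in 25.3% of all genes tested. That share is no like measure for Zscan4f, Usp17la, Usp17lb and Usp17lc. The WT libraries alone had carried them past the filter, which favours this order. The knockout libraries did not rank alike across the copies. Replicate 2 was the higher for Zscan4a, Zscan4c, Zscan4f, Usp17lc and by a small margin Usp17le, and replicate 1 for Zscan4d, Usp17la and Usp17lb. Family sums evened this out.

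The sum over the 4 Zscan4 members was 215 counts in WT replicate 1 (95% exact Poisson interval 187 to 246) and 242 in WT replicate 2 (213 to 275). In the knockout it was 119 (98.6 to 142) and 128 (107 to 152). Scaled, these were 15.8 CPM in each WT library and 7.59 and 8.33 CPM in the knockout libraries, with means of 15.8 ± 0.00373 and 7.96 ± 0.526 CPM (SD, n = 2 each). The log2 ratio of the means was -0.99, and the 4 possible pairs of a knockout and a WT library gave 48.0% to 52.8%. The intervals of the knockout and WT libraries did not overlap, and they cover counting error only, since reads copied by PCR are not independent molecules.

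The sum over the 4 Usp17l members was 102 counts (83.2 to 124) and 127 (106 to 151) in WT, and 39 (27.7 to 53.3) and 37 (26.1 to 51.0) in the knockout. In CPM these were 7.49 and 8.29 against 2.49 and 2.41, with means of 7.89 ± 0.561 and 2.45 ± 0.0552 CPM (SD, n = 2 each). The log2 ratio was -1.69, and the pairs gave 29.1% to 33.2%. With Zscan4b and Usp17ld added, the log2 ratios were -0.97 and -1.69, so those copies moved neither sum by much. Zscan4b had 3 counts in each WT library and 4 and 2 in the knockout, and Usp17ld had 10 and 8 in WT, against 2 and 4 in the knockout.

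**Figure D2:**
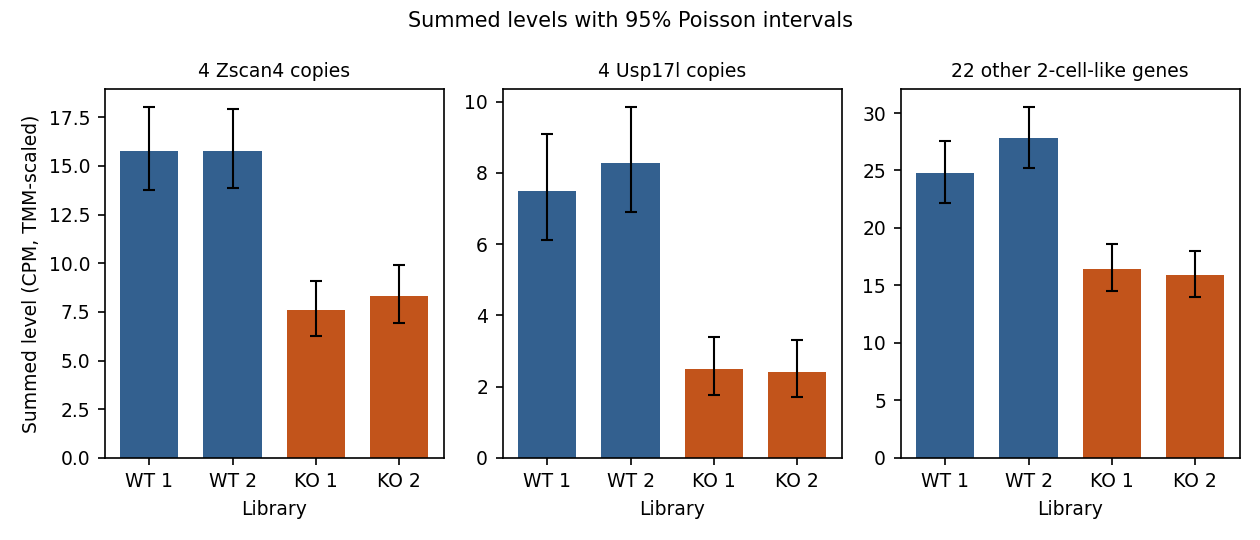
Summed level in TMM-scaled CPM (vertical axes, from 0) of the 4 Zscan4 copies, the 4 Usp17l copies and 22 other 2-cell-like genes in each library, WT in blue and Snf2l knockout in orange, with 95% exact Poisson intervals as error bars. The knockout bars stand at 50.4%, 31.0% and 61.5% of the mean WT bar.

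The families kept different shares of their WT levels. There were 0.474 and 0.525 Usp17l counts per Zscan4 count in the WT libraries, and 0.328 and 0.289 in the knockout libraries. This ratio does not depend on library scaling, and its groups did not overlap. Of the Usp17l members, Usp17la, Usp17lb and Usp17lc had passed the filter only through the WT libraries, but of the Zscan4 members only Zscan4f. The families were thus not chosen alike for being high in WT. No test was made of this ratio, and the copies of the families overlapped in fold change, with Zscan4f (-1.56) below Usp17lc (-1.19).

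Each copy's share of its family's counts was compared next. Zscan4d made up 41.4% and 43.0% of the Zscan4 counts in WT, against 46.2% and 35.2% in the knockout. Zscan4a made up 33.0% and 33.1% in WT, against 30.3% and 34.4% in the knockout, and Zscan4c 17.2% and 15.3% in WT, against 18.5% and 24.2% in the knockout. Zscan4f was at 8.37% and 8.68% in WT and at 5.04% and 6.25% in the knockout. The knockout shares of Zscan4d and Zscan4a spread around those of WT, while those of Zscan4c lay above WT and those of Zscan4f below, on few counts.

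Among the Usp17l copies, Usp17le was the largest in WT, at 31.4% and 33.1%, and stood at 28.2% and 29.7% in the knockout. The share of Usp17la was 21.6% and 18.9% in WT, against 28.2% and 13.5% in the knockout. That of Usp17lc was 21.6% and 19.7% in WT, against 18.0% and 40.5% in the knockout, and that of Usp17lb was 25.5% and 28.4% in WT, against 25.6% and 16.2% in the knockout. With 39 and 37 counts to divide among 4 copies, the knockout shares are uncertain.

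Levels were compared between copies per kb of annotated length. In WT, Zscan4d led at 2.93 CPM per kb, followed by Zscan4a at 2.29. Usp17lb at 1.36, Usp17le at 1.28 and Zscan4c at 1.13 came next, and the ranges of their WT libraries overlapped in part, from 1.06 to 1.51 over all 3. Zscan4f at 0.687, Usp17lc at 0.662 and Usp17la at 0.599 closed the order, with no overlap between them in WT but on only 18 to 25 counts a library. In the knockout, Zscan4d at 1.42, Zscan4a at 1.13 and Zscan4c at 0.751 CPM per kb stood above all Usp17l copies, which lay at 0.193 to 0.357, and Zscan4f was at 0.231. Usp17lb and Usp17le, above Zscan4c in mean WT level, were thus below it in both knockout libraries.

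How many reads can be given to 1 copy depends on its sequence. Transcripts of the members were 97.49% to 99.61% identical over 6 Zscan4 pairs and 89.96% to 94.91% over 6 Usp17l pairs. The nearest copy to Zscan4c was Zscan4f (99.61%), and the nearest to Zscan4f was Zscan4-ps2 (99.78%), a copy not in the table. For Usp17lc it was Usp17ld (97.94%), and for Usp17la it was Usp17le (94.91%). Neither the labels nor the methods state how reads that match several places were counted.

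Each transcript was cut into all its runs of 50 bases, and runs that occur in no other gene's transcript were counted. For Zscan4d 50.4% of the runs were its own, for Zscan4a 36.4%, for Zscan4c 14.5% and for Zscan4f 4.66%, and with runs of 100 bases the shares were 70.4%, 60.9%, 27.2% and 10.5%. The Zscan4 members thus came in the same order by this share as by their WT level per kb, while Zscan4b, with 9.65% of runs its own, had a lower level than Zscan4f. For Usp17la, Usp17lb, Usp17le and Usp17lc the shares were 79.6%, 78.2%, 69.2% and 55.3%, and their order by level was another one. These are descriptions over 5 copies a family that share the same libraries, and the part of this share in the levels was not tested. The transcripts are from GENCODE on GRCm38, which is of C57BL/6J, while the cells are 129S6/SvEvTac.

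**Figure D3:**
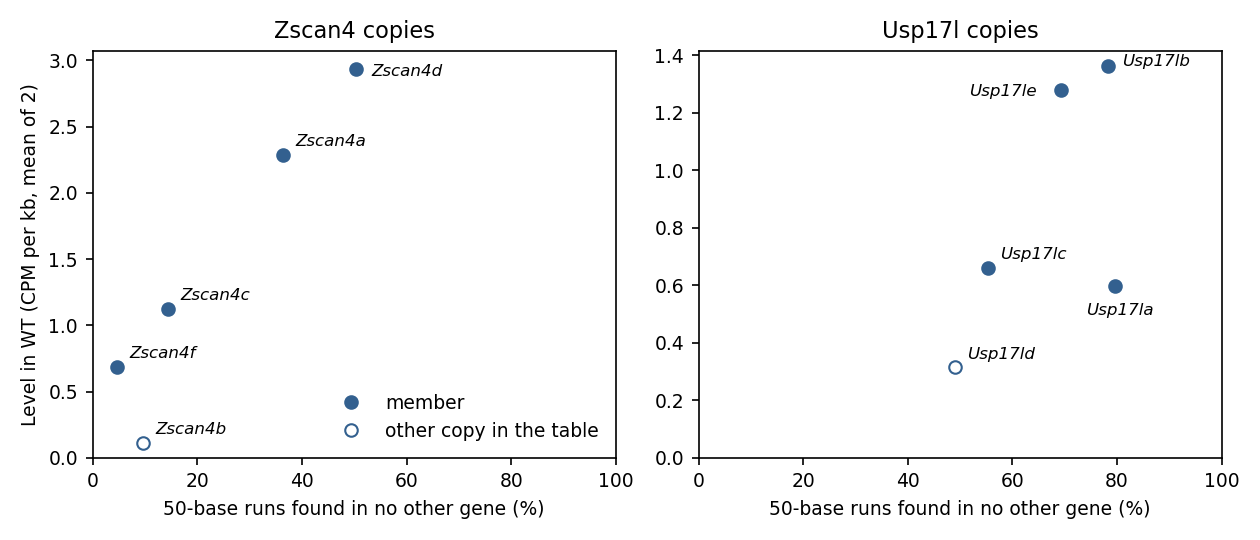
Mean level in WT (vertical axes, CPM per kb of annotated length, mean of 2 libraries) against the share of 50-base runs of the transcript found in no other gene's transcript (horizontal axes, %), for the Zscan4 (left) and Usp17l (right) copies in the table, with open points for Zscan4b and Usp17ld. Zscan4d, Zscan4a, Zscan4c and Zscan4f descend together on both axes, whereas Usp17la, with 79.6% of runs its own, has a lower level than Usp17lb and Usp17le.

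Genes around the copies were tested for a fall of the same kind. The 5 tested genes on either side of the Zscan4 members, 10 in all, had log2 fold changes of -0.29 to 0.20 (median -0.01). Of them 0 passed in edgeR, with a smallest adjusted p of 0.159, or 0 with DESeq2, while 1 had an unadjusted p under 0.05. At least 9.21% of all genes tested had such an unadjusted p. These 10 neighbours are not all close, since Zik1 lies 0.607 Mb from the centre of the Zscan4 members, the other 4 on that side 3.81 to 3.96 Mb and those on the other side 1.32 to 1.74 Mb. No tested gene lies between the outermost Zscan4 members. Around the Usp17l members 14 genes were tested, including 4 between the copies, Trim6, Trim34a, Trim12a and Trim12c. The other 10 lay 1.24 to 1.90 Mb from the centre. The log2 fold changes of the 14 ran from -0.74 to 0.33, with a median of 0.06. Only Stim1, which codes for a calcium sensor of the endoplasmic reticulum, passed, at -0.74 (adjusted p = 0.00233, edgeR).

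**Figure D4:**
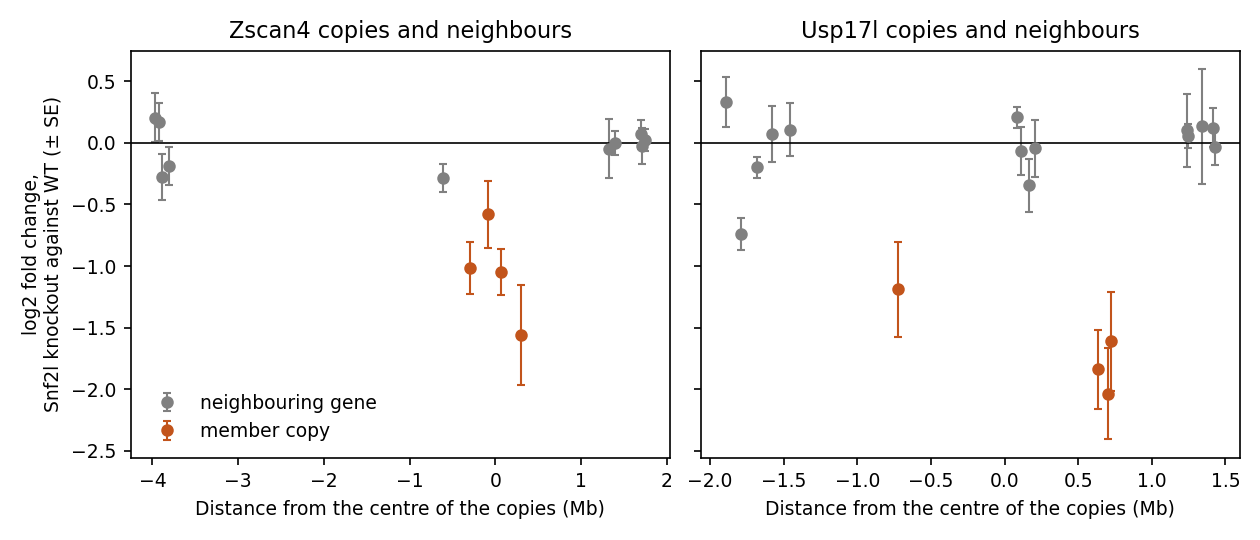
Log2 fold change of knockout against WT with its SE (vertical axes) against distance from the centre of the copies in Mb (horizontal axes), for the Zscan4 (left) and Usp17l (right) members in orange and for neighbouring tested genes in grey. The members lie between -2.04 and -0.58, and the neighbours between -0.74 and 0.33.

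Other genes of the 2-cell-like state were taken from a list of 25 symbols, 22 of which are genes of the table. Only 9 were tested, 8 with a negative log2 fold change, with a median of -0.96. Of the 9, 3 fell at an adjusted p under 0.05 and 1 of these was a DEG, beside 6 at an unadjusted p under 0.05. At least 9.21% of all genes tested had an unadjusted p under 0.05, since 9.21% passed with adjustment. Pramel31 and Lmx1a had passed the filter only through the WT libraries. So had Gm21761, whose 10 counts in knockout replicate 1 fell just short once scaled to library size. The counts and the median of these 9 thus rest in part on genes chosen for being high in WT. The DEG was Gm5662, with 42 counts in each WT library and 17 and 15 in the knockout, a log2 fold change of -1.49 (SE 0.284, adjusted p = 0.00350, edgeR). Without WT replicate 1 its adjusted p was over 0.01 and it was no DEG.

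Pramel31, of the PRAME-like family, had 22 and 24 counts in WT, against 8 and 11 in the knockout, and its log2 fold change was -1.37 (SE 0.366, adjusted p = 0.0289, edgeR). Tmem92, which codes for a predicted membrane protein, had 21 and 32 counts in WT, against 12 and 13 in the knockout, at -1.18 (SE 0.341, adjusted p = 0.0432, edgeR). For these 3 genes the knockout libraries lay below the WT libraries, as they did for 15 of the 22 genes, against 25.3% of all genes tested. The exception among those tested was Ddit4l, with 93 and 95 counts in WT, against 110 and 106 in the knockout, at a log2 fold change of 0.10. Of the 22 genes 13 were not tested, so that the shares are not fully alike. Their order can rest on very few counts, as for Tdpoz3, with 1 count in each WT library and 0 in each knockout library.

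The 22 genes summed to 337 and 426 counts in WT, against 258 and 244 in the knockout, which was 26.3 ± 2.15 CPM against 16.2 ± 0.401 CPM (SD, n = 2 each). The 13 genes that were not tested, among them Zfp352 and the Tcstv and Tdpoz genes, summed to 45 and 80 counts in WT, against 29 and 20 in the knockout. The knockout sums lay below those of WT in both cases. The WT libraries differed from each other more here than for the Zscan4 sum, where they were at the same level.

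**Figure D5:**
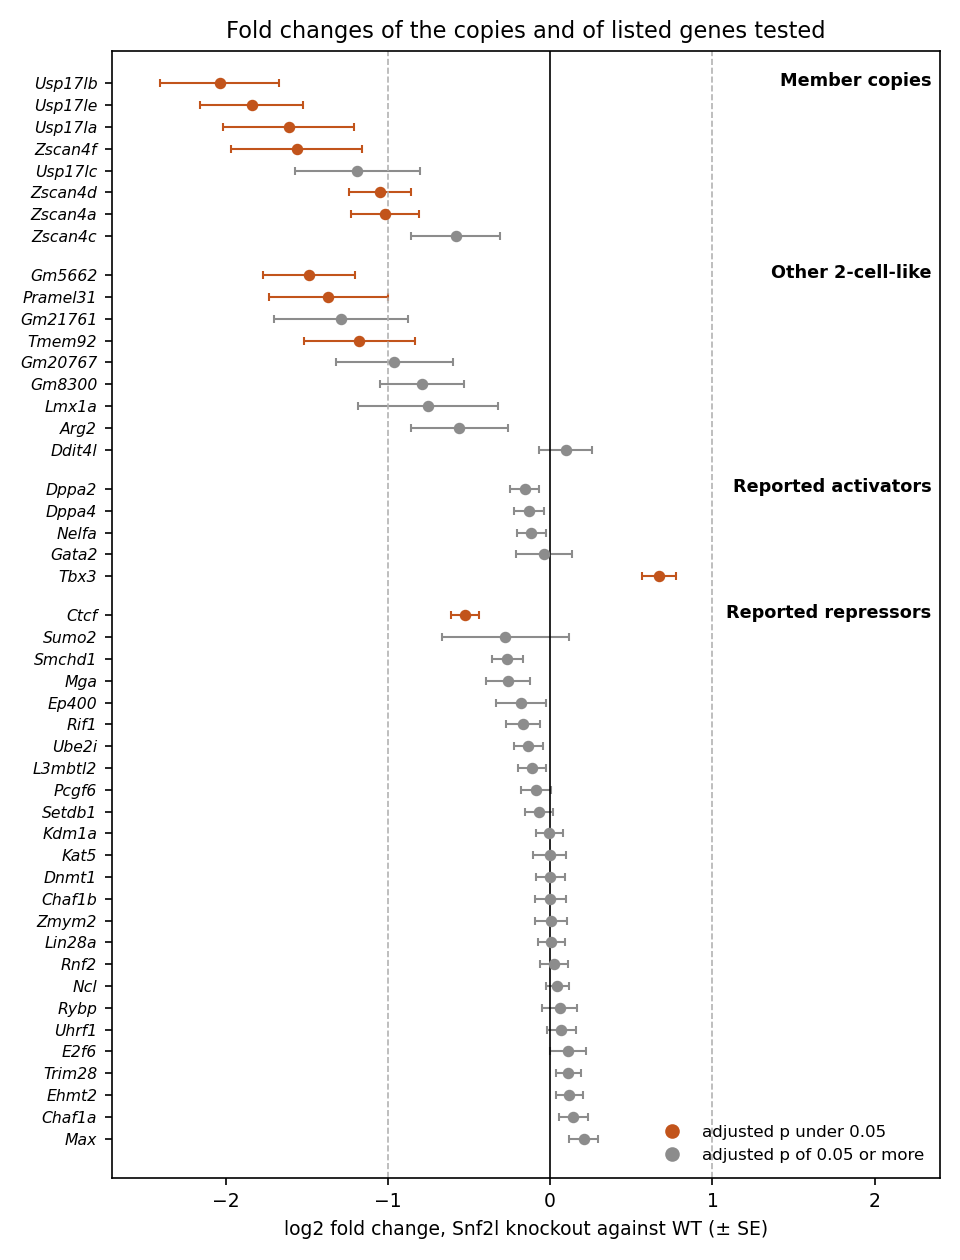
Log2 fold change of knockout against WT with its SE (horizontal axis) for the 8 member copies, 9 other 2-cell-like genes, 5 reported activators and 25 reported repressors of the state, with an adjusted p under 0.05 in orange and dashed lines at -1 and 1. The members range from -2.04 to -0.58 and the repressors from -0.53 to 0.21, and Tbx3 at 0.67 is the activator that rose.

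Genes reported to switch the 2-cell-like state on or off were taken from lists of 5 activators and 25 repressors. Of 5 activators, Dppa2 (-0.16), Dppa4 (-0.13), Nelfa (-0.12) and Gata2 (-0.04) did not pass. Tbx3, a T-box factor, had 663 and 767 counts in WT, against 1328 and 1114 in the knockout, and it rose with a log2 fold change of 0.67 (SE 0.103, adjusted p = 8.18e-04, edgeR), with no overlap. The direction of Tbx3 is thus opposite to that of the members.

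Of 25 repressors of the 2-cell-like state, which act in chromatin silencing and assembly, histone and SUMO modification or RNA binding, 24 did not pass, and the median log2 fold change was 0.00. Ctcf alone passed, at -0.53 (SE 0.084, adjusted p = 0.00103, edgeR), and it lies on chromosome 8, whose 754 tested genes had a median log2 fold change of -0.51. With edgeR or DESeq2, 0 of the 30 regulators were DEGs, and 4 had an unadjusted p under 0.05 in edgeR. At least 9.21% of all genes tested had such an unadjusted p, since 9.21% passed with adjustment. Whether any of the regulators takes part in the fall of the Zscan4 and Usp17l copies was not tested.

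Markers of other cells were read beside these falls. Over 8 fibroblast genes the sum was 15.3 and 12.7 CPM in WT, against 28.5 CPM in each knockout library, and neither genotype overlapped the other. All 6 of these genes that were tested had both knockout libraries above both WT libraries, with a median log2 fold change of 1.15. Of them 2, Col1a1 and Col3a1, rose at an adjusted p under 0.05 (edgeR), and both were DEGs. Over all 13840 genes tested, 137 were DEGs and 553 rose at an adjusted p under 0.05. Of the 6 fibroblast genes, 5 had an unadjusted p under 0.05. At least 9.21% of all genes tested had such an unadjusted p, since 9.21% passed with adjustment. Col3a1 and Postn had passed the filter only through the knockout libraries. The counts and the median of the fibroblast genes thus rest in part on genes chosen for being high in the knockout. The remaining 2 of the 8 fibroblast genes, Dcn and Lum, had at most 2 counts in any library. Over 8 genes of differentiated lineages the sum was 36.1 and 37.4 CPM in WT, against 27.7 and 26.2 CPM in the knockout. That sum is dominated by Pax6, at 20.1 and 20.6 CPM in WT, against 9.43 and 8.52 CPM in the knockout. Of the 7 tested, Pax6 and Sox1, the latter on chromosome 8, fell at an adjusted p under 0.05 (edgeR), and Gata4 and Gata6 rose. Over all genes tested, 9.21% passed that threshold in either direction. Pax6 was a DEG. An unadjusted p under 0.05 was found for 6 of the 7, and for at least 9.21% of all genes tested. The median log2 fold change of the 7 was 0.75, and Gata4, Gata6, Sox17 and Cdx2 had both knockout libraries above both WT libraries. Cdx2 had also passed the filter only through the knockout libraries. How common that pattern is over all genes tested was not counted, so it cannot be read as particular to these or the fibroblast genes. Among the ESC markers, Zfp42, also on chromosome 8, fell and Klf4 rose, and the other 6, Pou5f1, Nanog and Sox2 included, did not pass. The part of these shifts in the levels of the members was not tested.

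The genes whose levels followed the family sums most closely over the 4 libraries were ranked by the Euclidean distance between centred log2 CPM values. For Zscan4 they were Nes, Eif4a3l1, Tbc1d12, Arl2bp and 4932702P03Rik, at distances of 0.0771 to 0.119. Nes had 597 and 669 counts in WT, against 314 and 338 in the knockout, at 48.0% of the WT level. For Usp17l they were Pnma5, Pof1b, Mir24-2, 4933427D06Rik and Nxf3, at 0.148 to 0.216. Pnma5 had 142 and 167 counts in WT, against 55 and 57 in the knockout, at 33.8% of the WT level. These distances are over 4 libraries in 2 groups and were not tested. Pof1b and Mir24-2 had passed the filter only through the WT libraries. Arl2bp and Mir24-2 lie on chromosome 8, whose tested genes had a median log2 fold change of -0.51.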

How the data were processed

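Of the poly(A) RNA libraries, 2 were of WT and 2 of Snf2l knockout ESCs, and they were analysed as grouped by their labels. The authors deposited read counts per gene, which are whole numbers and not normalized. They had aligned reads to mm10 with QuasR and HISAT2 and counted them over UCSC Known Genes. The labels name a stranded mRNA kit and the methods an unstranded one, and whether counting used strand is not given in the sources used here.

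Genes were matched by Entrez identifier to RefSeq (GRCm38), which gave symbols for 24570 of 24594 (99.9%). Counts were filtered (filterByExpr, minimum count 10), TMM-scaled and tested in R 4.3.3 with edgeR 4.0.16 (glmQLFit and glmQLFTest, legacy form, two-sided, genotype as the only term), with Benjamini-Hochberg adjustment over 13840 genes. The common biological coefficient of variation was 7.45%. SD is over the 2 libraries of a genotype, intervals are exact Poisson at 95%, and the procedure was tested on simulated data. Identities are from global alignment of the longest GENCODE M21 transcript of each gene.

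The members and lists were chosen with earlier results of these data known. The genes named are the 8 members, other Zscan4 and Usp17l copies in the table, list genes with an adjusted p under 0.05, Smarca1 and the 5 genes most like each family. Other genes, such as Ddit4l, the markers, the neighbours and the remaining activators, were named after their values were seen. Symbols Duxf3, Gm2022 and Gm4340 were not matched. Alternatives were other scalings, filters and thresholds, DESeq2 1.42.0, other edgeR fits, a replicate block, chromosomes 8 and Y left out, and each library left out in turn.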

Additional observations from a re-analysis of the deposited data

How the results depend on the processing

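The 116 fold changes of the 8 copies under the alternatives were all negative. Of the 105 that came with an adjusted p, glmTreat left aside, 92 stayed on their side of the DEG threshold, 10 fell short of it and 3 newly passed it. The count of 4 member DEGs became 0 with DESeq2, which gave no adjusted p for Zscan4f, Usp17la and Usp17lc, and 0 with glmTreat against a 2-fold change, and 3 to 4 with a library left out. The 6 members at an adjusted p under 0.05 became 3 with DESeq2, 3 where at least 10 counts were asked of every library (which leaves out Zscan4f, Usp17la, Usp17lb and Usp17lc), and 4 to 6 with a library left out. Among other 2-cell-like genes the 1 DEG became 0 with DESeq2, 0 with glmTreat, 3 at an adjusted p under 0.05 with over 2-fold change, and 0 to 1 with a library left out, 0 without WT replicate 1. Among regulators the 0 DEGs became 2, Tbx3 and Ctcf, at an adjusted p under 0.01 at any fold change, and 0 to 1 with a library left out, the 1 being Sumo2 without knockout replicate 1. The log2 ratio of the Zscan4 sums stayed within -1.06 and -0.92 and that of the Usp17l sums within -1.76 and -1.61. The cause of these changes was not tested, other than where fewer genes or libraries entered.

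The labels give both genotypes replicates 1 and 2, and same-numbered libraries deviated together with a correlation of 0.196, but 2 such pairs do not establish a pairing. With the replicate number as a block, 6 members and 3 other 2-cell-like genes were DEGs and 7 members had an adjusted p under 0.05. Over all genes, 137 were DEGs, against 223 with the block, 88 with DESeq2, and 25 passed an adjusted p under 0.05 with glmTreat. The 1274 genes at an adjusted p under 0.05 became 3471 with the block, 799 with DESeq2, 574 without chromosomes 8 and Y, 829 without WT replicate 1 and 1932 without knockout replicate 1.

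Depth is low, since no copy had over 104 counts in a library and 4 had under 10 in at least 1 knockout library.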
